A study of Mus musculus with 20 samples.

Results

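Insulin-like growth factors (IGFs), their receptors and their binding proteins were followed as a family of 10 genes in embryonic mouse hearts with and without Cre-driven deletion of Kmt2d, which encodes a histone H3 lysine 4 methyltransferase. The family was taken by gene symbol, as Igf1, Igf2, Igf1r, Igf2r, Igfbp1, Igfbp2, Igfbp3, Igfbp4, Igfbp5 and Igfbp7, out of 33495 genes in the deposited table. All 10 symbols were found once. RNA sequencing covered 20 C57BL/6 libraries in 6 groups. Mesp1Cre hearts were whole hearts labelled E9.0 (4 mutants, 4 controls), although the protocol text of the same records gives E11.5. Mef2cAHF::Cre tissue was right ventricle with outflow tract at E11.5 (3 libraries labelled mutant, 3 labelled control), and Tnnt2::Cre hearts were whole hearts at E11.5 (3 mutants, 3 controls). Mutants carried the Cre and Kmt2d fl/fl, and controls carried the same Cre and Kmt2d fl/+, so that 1 allele was open to deletion in every control. All 6 groups carried the mTmG reporter allele (mTmG/+). Mesp1Cre is active in early mesoderm, Mef2cAHF::Cre in precursors of the anterior heart field and Tnnt2::Cre in cardiomyocytes, so each library mixed cells that had and had not met the Cre. In such bulk RNA, fewer cells of a type and less RNA per cell cannot be told apart. No source used here says that libraries of 1 group came from separate litters, and p-values measure the spread between these libraries.

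IGF1 and IGF2 are secreted peptides that signal through IGF1R, a receptor tyrosine kinase which activates the PI3K and MAPK cascades, and through the related insulin receptor. IGF2R, also the mannose 6-phosphate receptor, takes up IGF2 and delivers it to lysosomes. Binding proteins hold IGFs in the extracellular space and can limit or prolong their access to the receptor, and in the embryonic heart IGF2 from epicardium and endocardium is known as a mitogen for the compact myocardium.

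Libraries held between 21727258 and 45341870 counted reads, and the Tnnt2::Cre libraries were the deepest. Levels are given as CPM, reads of a gene scaled to a fixed total per library, on a single scale for all 20 libraries, and comparisons between genes as the deposited FPKM, which divides by gene length. Kmt2d, listed in the table as Mll2, was measured first as a check of the labels. It lay between 126 and 140 CPM in the Mesp1Cre mutants and between 150 and 163 CPM in their controls. In the Tnnt2::Cre line it lay between 113 and 122 CPM against 126 and 167 CPM. In neither line did Kmt2d pass at FDR below 0.05. Its log2 fold change was -0.21 (SE 0.07, edgeR FDR = 0.0764) in Mesp1Cre and -0.35 (SE 0.12, edgeR FDR = 0.327) in Tnnt2::Cre. In the Mef2cAHF::Cre line it ran the other way, with 183, 184 and 190 CPM in the libraries labelled mutant and 142, 152 and 153 CPM in those labelled control (log2 fold change 0.32, SE 0.06, edgeR FDR = 0.0359). The sample titles, the genotype labels and the first header row of the table name these libraries one way, and the column names in the second header row name them the other way. Both readings are given for this line, and a change of reading turns the sign of each difference. Reads over the whole gene were counted, so cells with the floxed part deleted could still add reads.

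Per length, the family was headed by Igf2 in every group (the plot of FPKM by group). Mean Igf2 FPKM lay between 684 in the Tnnt2::Cre controls and 1109.7 in the Mef2cAHF::Cre libraries labelled control. Igf2r came next, with group means from 159 to 249.7 FPKM, and Igfbp5 after it, with group means from 98.0 to 148 FPKM. Igf2 stood clear of Igf2r in each group, with no library of one inside the range of the other, while Igf2r and Igfbp5 overlapped in the Mesp1Cre controls. Group means of Igfbp4 and Igf1r lay between 15.2 and 31.4 FPKM, and Igfbp2, Igf1, Igfbp3 and Igfbp7 lay below them in an order that changed with the group, except that mean Igf1 (19.24 FPKM) was just above Igf1r (19.04 FPKM) in the Mef2cAHF::Cre libraries labelled mutant. Of 54 pairs of neighbours in these orders, 17 overlapped between libraries, most of them among Igf1, Igfbp2, Igfbp3 and Igfbp7. Igf2 exceeded Igf1 per length by 131 to 167 times in the Mesp1Cre controls and by 67.3 to 77.0 times in the Tnnt2::Cre controls. Igfbp5, the most conserved of the binding proteins and one that also binds extracellular matrix, made up 60.1% to 83.6% of the summed Igfbp FPKM in the 20 libraries.

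**Figure D1:**
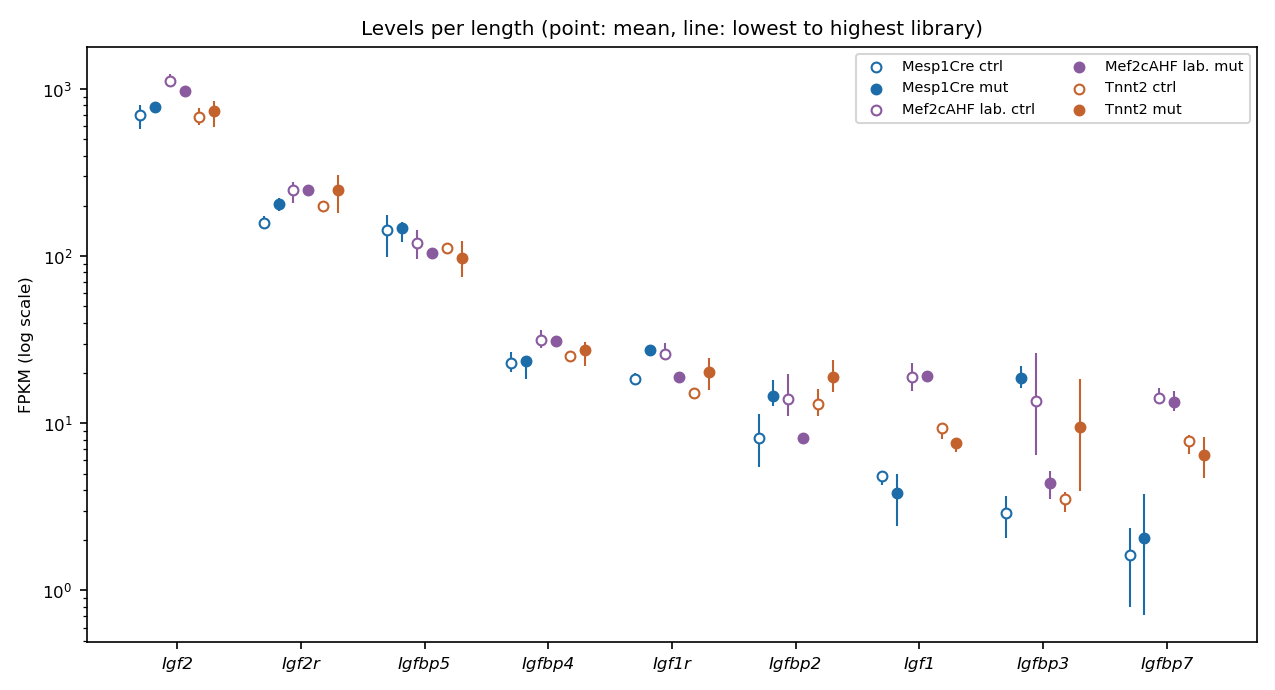
FPKM (log scale) of 9 family members in 6 groups. Points are group means, lines run from the lowest to the highest library, filled points are mutants and open points controls (lab., as labelled). Igf2 lies above all other members in every group, and Igf1 and Igfbp7 are lowest in the Mesp1Cre groups.

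Igfbp1, a binding protein made mainly by liver and decidua, was close to absent. No library held more than 6 reads of it, and 12 of 20 held none, where a count of 0 allows up to 0.0705 to 0.128 CPM (3 counts in the library, counting error only). It passed the filter on low counts in no comparison, and the other 9 members passed in all of them. Igfbp1 and Igfbp3 are neighbours on chromosome 11 (mm9), Igfbp1 at 7097785 to 7102549 on the plus strand and Igfbp3 at 7106089 to 7113900 on the minus strand, with 3539 bases between them. Igfbp2 (72871077 to 72899048, plus) and Igfbp5 (72904506 to 72921458, minus) form a like pair on chromosome 1, with 5457 bases between them. Igf2 on chromosome 7 (149836673 to 149852721, minus) shares 98 exonic bases, 1.78% of its exons in the GENCODE vM1 annotation, with the antisense gene Igf2as. Igfbp7 on chromosome 5 (77778271 to 77837070, minus) shares 85 bases, 7.01% of its exons, with Polr2b and AC141469.5 on the other strand. Whether counting used strand is not given in the sources used here, so any reads counted in these stretches cannot be assigned to a strand. The deposited lengths of Igf2 (5395 bases) and Igfbp7 (1035 bases) are shorter than their exons in this annotation (5493 and 1213 bases). The shared bases may thus lie outside what was counted. In the GENCODE vM1 annotation the other 8 members share no exonic base with another gene. For Igf1r it holds 4476 exonic bases, while the deposited table gives a length of 11978. Sequence outside these exons was not checked for overlap.

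The gene-start windows of 5 members are shown because 3 of them (Igfbp3, Igf1r, Igfbp2) carry the genotype result below and 2 (Igfbp5, the neighbour of Igfbp2, and Igf1) did not pass there. Igfbp2 has a further window downstream in the same table, which is not printed. They are RefSeq windows (GRCm38.p6) of 250 bases before and 50 after the annotated start, 5′ to 3′ on the gene's strand, with CG dinucleotides in capitals.
Igfbp3, chr11:7213874-7214173, minus: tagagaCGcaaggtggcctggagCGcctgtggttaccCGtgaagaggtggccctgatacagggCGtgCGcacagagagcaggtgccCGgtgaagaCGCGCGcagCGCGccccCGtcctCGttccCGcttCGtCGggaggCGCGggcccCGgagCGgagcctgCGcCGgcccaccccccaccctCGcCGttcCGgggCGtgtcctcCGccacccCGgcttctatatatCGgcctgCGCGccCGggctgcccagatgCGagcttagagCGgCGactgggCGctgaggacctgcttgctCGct
Igf1r, chr7:67952007-67952306, plus: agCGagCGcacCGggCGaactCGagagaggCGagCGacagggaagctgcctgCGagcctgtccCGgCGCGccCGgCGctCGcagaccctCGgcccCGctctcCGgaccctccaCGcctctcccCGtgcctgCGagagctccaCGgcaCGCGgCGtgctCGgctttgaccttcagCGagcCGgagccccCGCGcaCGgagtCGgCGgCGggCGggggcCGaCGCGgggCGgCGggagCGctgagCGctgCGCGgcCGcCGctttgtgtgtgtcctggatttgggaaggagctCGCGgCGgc
Igfbp2, chr1:72824230-72824529, plus: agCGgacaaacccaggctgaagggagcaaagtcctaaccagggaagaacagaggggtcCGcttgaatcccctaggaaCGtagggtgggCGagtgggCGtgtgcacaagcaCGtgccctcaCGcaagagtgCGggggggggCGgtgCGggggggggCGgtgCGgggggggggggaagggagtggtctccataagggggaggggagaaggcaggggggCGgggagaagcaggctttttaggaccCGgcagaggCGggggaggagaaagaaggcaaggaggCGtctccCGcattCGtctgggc
Igfbp5, chr1:72874816-72875115, minus: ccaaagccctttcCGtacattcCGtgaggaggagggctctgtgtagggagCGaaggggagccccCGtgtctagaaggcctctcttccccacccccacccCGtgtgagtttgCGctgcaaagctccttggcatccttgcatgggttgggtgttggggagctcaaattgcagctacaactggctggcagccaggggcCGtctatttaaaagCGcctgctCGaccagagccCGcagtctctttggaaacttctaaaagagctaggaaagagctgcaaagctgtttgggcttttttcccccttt
Igf1, chr10:87860861-87861160, plus: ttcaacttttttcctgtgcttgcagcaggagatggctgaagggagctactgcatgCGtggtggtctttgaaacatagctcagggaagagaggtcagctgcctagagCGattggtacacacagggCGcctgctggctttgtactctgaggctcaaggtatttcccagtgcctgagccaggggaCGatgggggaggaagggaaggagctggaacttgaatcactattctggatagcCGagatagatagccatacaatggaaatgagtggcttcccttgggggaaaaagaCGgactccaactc
The Igf1r window holds 48 CG dinucleotides, more than 98.8% of the 32851 windows in the table, and the Igfbp3 window holds 37, more than 94.4% of them. The Igfbp2 window shown holds 18 and its further window 14, the Igfbp5 window 10 and the Igf1 window 6, where the median of all windows is 7. Rich windows were not particular to the members that passed, since those of Igf2r (34), Igfbp7 (33) and Igfbp4 (27) are rich too. The letters ACGTG, a form of the core of the hypoxia response element, were searched on both strands, so that CACGTG counts once. They stand in 19.6% of all windows, and of the 5 windows shown only that of Igfbp2 holds them, 142 bases before the start, while the further Igfbp2 window does not. They are also found in a window of Igf2r, Igf2 and Igfbp7. These are matches of letters and no measure of binding. The other form of the core, GCGTG, was not searched. It can be read in the windows shown of Igfbp3, Igf1r, Igfbp2 and Igf1.

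Deletion in early mesoderm was read from the Mesp1Cre hearts at E9.0. Igfbp3, the chief carrier of IGFs in the circulation and also a regulator of cell growth outside the IGF receptors, was the member that differed most, 5.74 times higher in the mutants. Igf1r and Igfbp2 were higher as well, by smaller factors of 1.33 and 1.61. These 3 of the 9 members tested passed in the upward direction and none in the downward direction at FDR below 0.05 (edgeR quasi-likelihood test), where 6.17% of 15883 genes passed upward and 5.29% downward. The median log2 fold change of the 9 was 0.19, against 0.00 over all genes tested. By unadjusted p below 0.05, 5 of the 9 passed, against 26.9% of all genes.

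In single libraries, Igfbp3 read 47.2, 47.5, 62.9 and 55.5 CPM in the 4 Mesp1Cre mutants and 8.28, 6.76, 10.6 and 11.9 CPM in the 4 controls. Every mutant lay above every control, so the groups did not overlap. The means were 53.3 ± 7.497 and 9.40 ± 2.31 CPM (SD, n = 4 each), and the log2 fold change was 2.52 (SE 0.18, edgeR FDR = 1.17e-05). Per length, Igfbp3 rose from 1.23% to 2.83% of the summed Igfbp FPKM in the controls to 7.72% to 11.9% in the mutants.

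Igf1r, the signalling receptor of the family, read 299, 297, 302 and 312 CPM in the mutants and 225, 253, 225 and 220 CPM in the controls. The 4 mutants lay close together, all above the controls (log2 fold change 0.41, SE 0.07, edgeR FDR = 0.00247). Groups without overlap were seen for 18.1% of the genes tested in this line, and for Igf1r and Igfbp3 among the 9 members. Igfbp2, a binding protein with preference for IGF2, read 30.8, 23.2, 24.3 and 21.2 CPM in the mutants and 13.8, 16.9, 21.3 and 10.6 CPM in the controls. Its groups met at a mutant and a control of nearly equal level. The log2 fold change was 0.68 (SE 0.20, edgeR FDR = 0.0403), and this call is the weak one of the 3, since it was lost without control 1, 2 or 4 or mutant 1 or 3, with FDR up to 0.121.

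The ligands did not pass in this line. Igf1 read 35.3, 22.6, 36.7 and 44.6 CPM in the mutants and 50.4, 54.2, 51.4 and 44.4 CPM in the controls. The groups overlapped only through mutant 4 and control 4 (log2 fold change -0.51, SE 0.17, edgeR FDR = 0.0714). Without mutant 4 the value was -0.64 with edgeR FDR = 0.0369, and by DESeq2 Igf1 passed with all 8 libraries (-0.51, FDR = 0.0188). Igf2 averaged 3867 ± 141 CPM in the mutants and 3944 ± 566 CPM in the controls (n = 4 each, log2 fold change -0.01, SE 0.09, edgeR FDR = 0.961), and the 4 mutants lay within the range of the controls. Igf2r, the clearance receptor, averaged 1687 ± 144 and 1473 ± 121 CPM (log2 fold change 0.21, SE 0.08, edgeR FDR = 0.0986), and passed without mutant 2 (edgeR FDR = 0.0498) and on the log2(FPKM + 1) scale (0.37, limma FDR = 0.0173). Igfbp4, Igfbp5 and Igfbp7 gave log2 fold changes of -0.13, -0.12 and 0.19 with FDR from 0.563 to 0.857. Igfbp7 lay at 0.675 to 3.53 CPM over both groups, and the SE of its log2 fold change (0.51) exceeded the value itself.

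**Figure D2:**
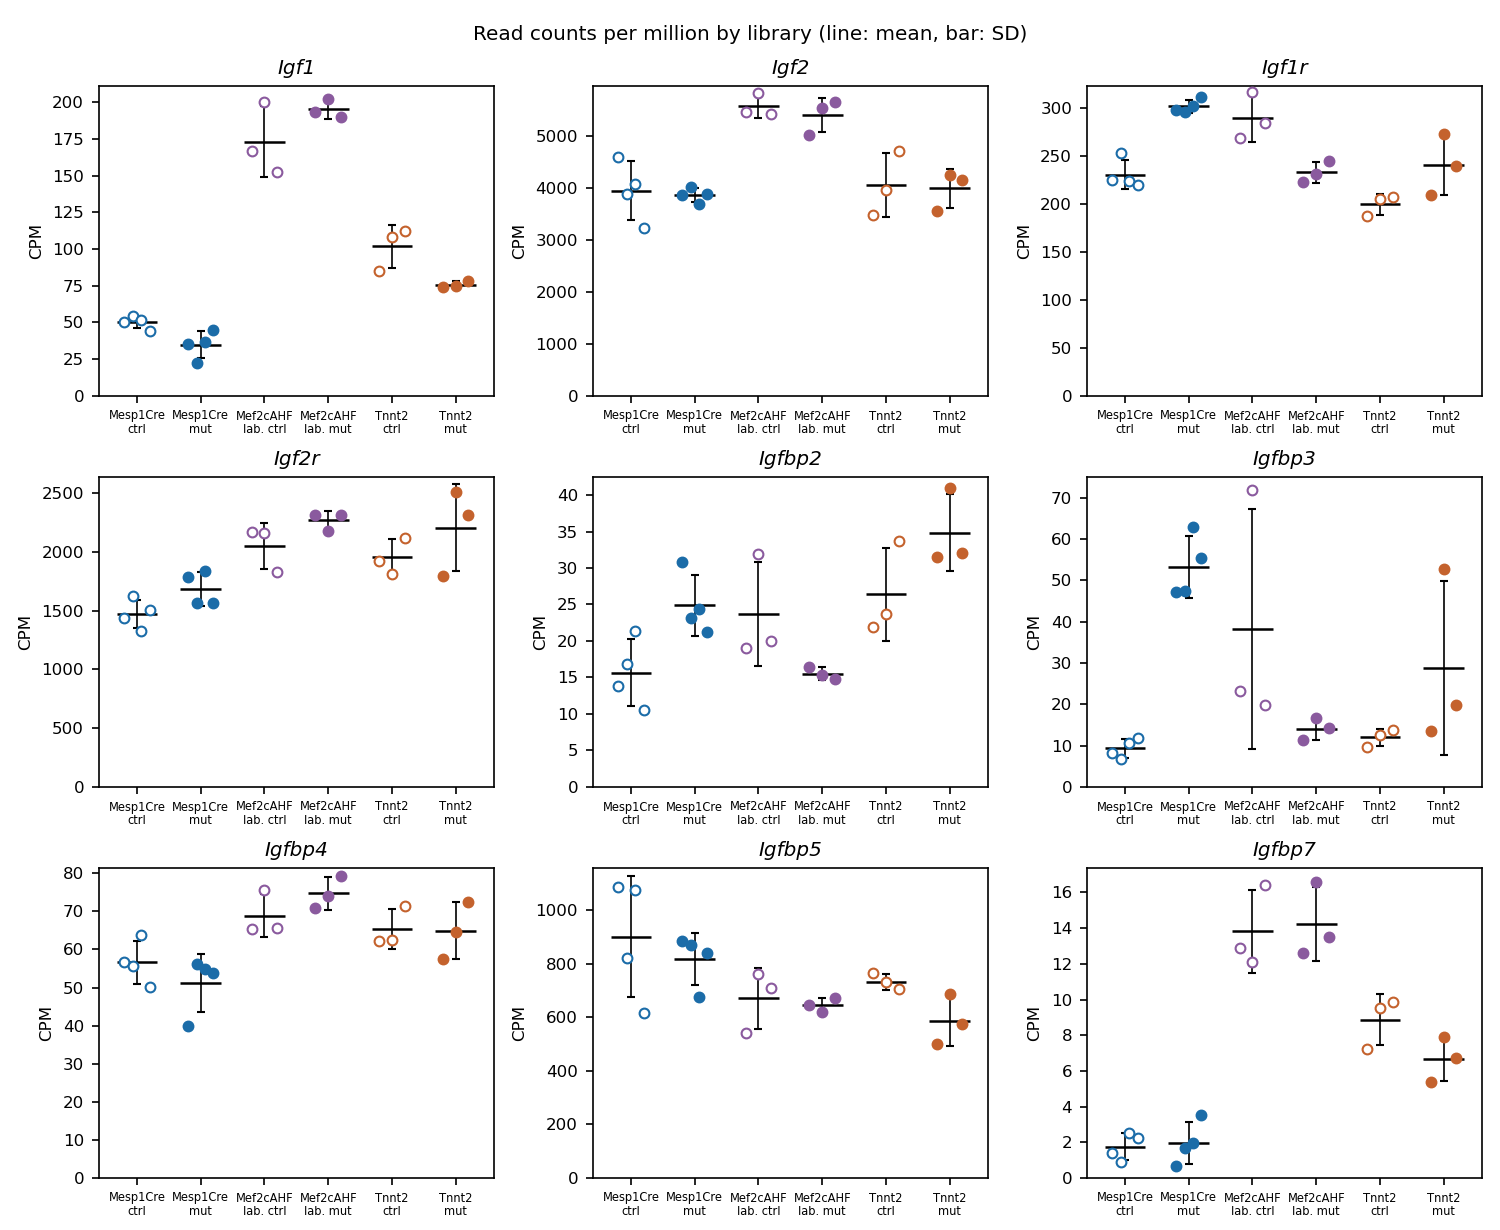
CPM by library of 9 family members (each panel has its own axis from 0). Filled points are mutants, open points controls, with Mef2cAHF::Cre libraries as labelled (lab.). Lines are means and bars SD. Igfbp3 in the 4 Mesp1Cre mutants lies from 47.2 to 62.9 CPM, above the 6.76 to 11.9 CPM of their controls, and 1 library of each E11.5 line stands above its group.

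Other measured features moved with genotype in the Mesp1Cre line. All 14 genes of a hypoxia response list (Vegfa, Slc2a1, Ldha and others) passed upward, and their summed level was 5703 to 6808 CPM in the mutants against 3215 to 3901 CPM in the controls, with no listed gene at 0. Of 8 erythroid genes, 4 passed downward, and their sum was 1918 to 7458 CPM against 5420 to 17900 CPM. Of 5 endothelial and endocardial genes 2 passed upward (450 to 539 CPM summed against 358 to 438), and no gene passed of the 5 cardiomyocyte, 5 epicardial and 5 cushion mesenchyme markers. Macrophage and liver sums stayed at or below 1.80 and 2.32 CPM in both groups, with 4 of 5 and 8 of 8 markers below 1 CPM. Y-linked genes were expressed in 4 of 4 mutants and 2 of 4 controls. With sex as a covariate the same 3 members passed (Igfbp3 edgeR FDR = 0.000614). The part of hypoxia response, red cells or endothelium in the Igfbp3, Igf1r and Igfbp2 results was not tested.

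The Mef2cAHF::Cre line asked the same of anterior heart field derivatives, here right ventricle and outflow tract at E11.5. No member passed in either reading (0 of 9, 3 of 9 at unadjusted p below 0.05), where 2.85% of 16920 genes passed and 17.9% had an unadjusted p below 0.05. By DESeq2, Igf1r and Igfbp2 passed, and without the filter on low counts Igfbp3 passed with them. By the sample labels the 3 members that were higher in the Mesp1Cre mutants had lower values in the libraries labelled mutant, while the column names give them higher values. The median log2 fold change of the 9 was -0.04 by the labels, against -0.01 over all genes.

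Igfbp3 read 11.3, 16.6 and 14.2 CPM in the libraries labelled mutant and 23.1, 71.7 and 19.8 CPM in those labelled control. The groups did not overlap, but the 71.7 CPM of labelled control 2 stood far above the other 5 libraries. The log2 fold change was -1.45 under the labels and 1.45 under the column names (SE 0.44, edgeR FDR = 0.120), and without labelled control 2 it was -0.61 by the labels. That library also had the highest hypoxia response sum of the line (3835 CPM, the others 2325 to 2835) and the lowest erythroid sum (7176 CPM, the others 20677 to 46641), and their part was not tested. By the labels, 0 of 14 hypoxia response genes passed and 0 had a positive log2 fold change (median -0.71). Of the 8 erythroid genes, 1 passed and 8 had a positive value (median 0.92). An unadjusted edgeR p below 0.05 was found for 9 of the 14 and 5 of the 8, against 17.9% of all genes, and 2.85% of all genes passed. Of 5 macrophage markers, 3 had such a p and 0 a positive value (9.57 to 14.8 CPM summed against 15.1 to 21.5). It was also found for 2 of 5 epicardial and 1 of 5 endothelial and endocardial markers. Among cardiomyocyte, cushion mesenchyme and liver markers it was found for 0. No marker of these further lists passed, and their part was not tested. The column names turn all of these signs.

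Igf1r read 223, 231 and 245 CPM in the libraries labelled mutant and 269, 317 and 284 CPM in those labelled control (log2 fold change -0.31, SE 0.08, edgeR FDR = 0.0764). Igfbp2 read 16.5, 15.4 and 14.8 CPM against 19.1, 31.9 and 20.04 CPM (log2 fold change -0.61, SE 0.18, edgeR FDR = 0.119). Neither overlapped between the labelled groups, and the fourth member without overlap was Igf2r (log2 fold change 0.14, edgeR FDR = 0.425). Groups without overlap made up 23.9% of all genes tested here. Igf1 (194, 202 and 190 CPM against 166, 200 and 153) and Igf2 (5024 to 5656 against 5422 to 5830 CPM) overlapped, with log2 fold changes of 0.17 and -0.04, and Igf1 passed only without labelled control 2 (0.29, edgeR FDR = 0.0499). Igfbp4, Igfbp5 and Igfbp7 lay between -0.05 and 0.12 by the labels, with FDR of 0.497 or more.

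Deletion in cardiomyocytes was read from the Tnnt2::Cre hearts at E11.5. No member passed (0 of 9), in a line where 0.293% of 17045 genes passed, and 5 of 9 had an unadjusted p below 0.05, against 11.9% of all genes. DESeq2 also called none of the 9. Igfbp3, Igfbp2 and Igf1r had higher mean levels in the mutants, and Igf1, Igfbp5 and Igfbp7 lower ones. The median log2 fold change of the 9 was -0.01, against 0.00 over all genes.

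Igfbp3 read 13.5, 52.7 and 19.8 CPM in the mutants and 9.68, 12.6 and 13.7 CPM in the controls. Mutant 1 lay among the controls and mutant 2 far above all others of the line (log2 fold change 1.27, SE 0.44, edgeR FDR = 0.327). Without mutant 1 the value was 1.61 with edgeR FDR = 0.0215, and without mutant 2 it was 0.48. Mutant 2 had the highest hypoxia response sum of the line (4050 CPM) and the lowest erythroid sum (18953 CPM), where the controls had 2014 to 2723 and 102604 to 158238 CPM, and mutant 1 had 2643 and 130643 CPM. The part of either in the Igfbp3 values was not tested. In this line 0 of 14 hypoxia response genes and 0 of 8 erythroid genes passed, where 0.293% of all genes passed. Of the 14 hypoxia response genes, 13 had a positive log2 fold change and 8 an unadjusted edgeR p below 0.05 (median log2 fold change 0.61). Of the 8 erythroid genes, 0 had a positive value (median -1.04) and 0 an unadjusted edgeR p below 0.05. Such a p was found for 11.9% of all genes. It was also found for 4 of 5 macrophage markers, with all 5 positive (17.1 to 26.0 CPM summed against 10.9 to 15.2). Of 5 cushion mesenchyme markers, 3 had it and 0 were positive (1271 to 1753 against 1687 to 1810 CPM). It was found for 1 of 5 cardiomyocyte, 1 of 5 epicardial, 0 of 5 endothelial and endocardial and 0 of 4 liver markers. No marker of these lists passed, and their part was not tested.

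Igf1 read 74.2, 74.9 and 78.3 CPM in the mutants and 85.3, 108 and 112 CPM in the controls. The groups did not overlap, and the difference did not pass (log2 fold change -0.43, SE 0.11, edgeR FDR = 0.225). Igf1r (210, 273 and 240 CPM against 187, 205 and 207) and Igfbp5 (498, 688 and 575 CPM against 764, 732 and 704) were the other members without overlap, a state shared by 16.9% of all genes tested. Their log2 fold changes were 0.27 (SE 0.12, edgeR FDR = 0.413) and -0.32 (SE 0.14, edgeR FDR = 0.419). Igfbp2 read 31.5, 40.95 and 32.1 CPM against 21.9, 23.7 and 33.7 CPM, with overlap through control 3. Igf2 averaged 3990 ± 370 and 4059 ± 621 CPM (SD, n = 3 each, log2 fold change -0.02). Igf2r, Igfbp4 and Igfbp7 gave 0.18, -0.01 and -0.40, with FDR from 0.450 to 0.985.

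**Figure D3:**
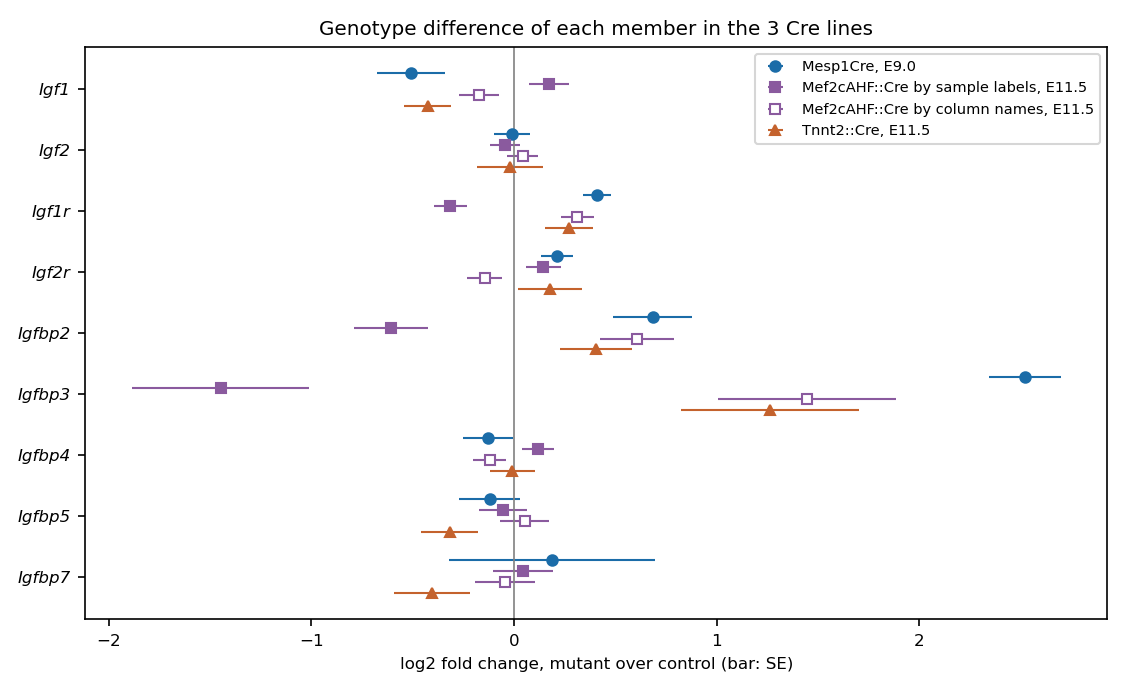
Log2 fold change of mutant over control, with SE, for 9 members in the Mesp1Cre (circles), Mef2cAHF::Cre (squares, filled by sample labels and open by column names) and Tnnt2::Cre (triangles) lines. Igfbp3 has the highest value of the family in the Mesp1Cre line (2.52), and the reading of the Mef2cAHF::Cre names decides on which side of 0 its squares fall.

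Whether a genotype difference itself differed between lines was tested in a fit of all 6 groups. Between Mesp1Cre and Tnnt2::Cre no member passed (3.04% of 18391 genes passed), so that the call of Igfbp3, Igf1r and Igfbp2 in one line only was not shown to be a difference between lines. Igfbp3 came nearest, with a difference of 1.24 on the log2 scale (SE 0.57, edgeR FDR = 0.236), and without Tnnt2::Cre mutant 2 it was 2.03 with edgeR FDR = 0.0275. Between Mesp1Cre and Mef2cAHF::Cre by the labels 4 of 9 members passed (11.3% of genes). Igfbp3 differed by 3.95 (SE 0.58, edgeR FDR = 2.21e-04) and Igfbp2 by 1.28 (SE 0.31, edgeR FDR = 0.00987). Igf1r differed by 0.70 (SE 0.12, edgeR FDR = 6.68e-04) and Igf1 by -0.70 (SE 0.21, edgeR FDR = 0.0397). The Igf1 call was lost without Mesp1Cre control 1, 2 or 3, Mesp1Cre mutant 1, any library labelled Mef2cAHF::Cre mutant or labelled control 1 or 3 (edgeR FDR up to 0.122). By the column names none of the 9 passed (1.63% of genes), and the same differences were 1.06, 0.06, 0.08 and -0.35. Between Mef2cAHF::Cre and Tnnt2::Cre by the labels Igf1r (-0.58, SE 0.13, edgeR FDR = 0.0127) and Igfbp3 (-2.70, SE 0.61, edgeR FDR = 0.0180) passed (3.19% of genes), and the Igfbp3 call was lost without Tnnt2::Cre mutant 2 or control 1 or without labelled mutant 1 or labelled control 2 (edgeR FDR up to 0.0607). By the column names no gene in the whole table passed (0% by edgeR, with 472 genes, 2.57%, at unadjusted p below 0.05), and Igfbp3 differed by 0.19 and Igf1r by 0.04. The 2 comparisons with Mef2cAHF::Cre share its 6 libraries.

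Across stages, whole hearts of the Tnnt2::Cre line at E11.5 were compared with those of the Mesp1Cre line at E9.0, separately in controls and mutants. Stage and Cre line cannot be told apart in this design. Sex differed as well, with Y-linked genes expressed in 4 of 4 E9.0 mutants and 1 of 3 E11.5 mutants. In controls they were expressed in 2 of 4 and 2 of 3. No sex covariate was used between stages. In the controls, 4 of 9 members were higher at E11.5 and 1 was lower, where 19.6% of 16697 genes passed upward and 18.8% downward. In the mutants 4 were higher and 2 lower, where 18.8% of 16617 genes passed upward and 17.1% downward. The control libraries here are those of the genotype comparisons above.

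Igf1 and Igfbp7 rose most. Igf1 read 85.3, 108 and 112 CPM in the E11.5 controls and 44.4 to 54.2 CPM in those of E9.0 (log2 fold change 0.99, SE 0.11, edgeR FDR = 4.04e-05), and 74.2 to 78.3 against 22.6 to 44.6 CPM in the mutants (1.10, SE 0.19, edgeR FDR = 0.00188). Igfbp7, a secreted protein of vessel walls with low affinity for IGFs, read 7.24, 9.50 and 9.87 CPM in the E11.5 controls and 0.866 to 2.49 CPM in those of E9.0. Its log2 fold change was 2.31 (SE 0.32, edgeR FDR = 2.38e-04) in controls and 1.74 (SE 0.44, edgeR FDR = 0.0124) in mutants. Neither gene overlapped between stages in either genotype, as 45.4% of genes did not in the controls and 43.9% in the mutants.

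Igf2 did not pass, with log2 fold changes of 0.01 (SE 0.13) in controls and 0.03 (SE 0.09) in mutants. Igf2r was higher at E11.5 in controls (0.38, SE 0.09, edgeR FDR = 0.00866) and mutants (0.37, SE 0.12, edgeR FDR = 0.0382). Igf1r was lower in controls (-0.24, SE 0.08, edgeR FDR = 0.0325) and mutants (-0.34, SE 0.10, edgeR FDR = 0.0231). Igfbp2 was higher in both (0.72, edgeR FDR = 0.0224, and 0.47, edgeR FDR = 0.0390). Igfbp5 was lower in the mutants (-0.49, SE 0.13, edgeR FDR = 0.0168), and in the controls it gave -0.33 with edgeR FDR = 0.146. Igfbp3 did not pass in controls (0.32, edgeR FDR = 0.256) or mutants (-0.91, edgeR FDR = 0.0943), and without Tnnt2::Cre mutant 2 the latter was -1.69 with edgeR FDR = 5.24e-04. In controls the Igf1r call was lost without E9.0 control 1, 2 or 3 or E11.5 control 1 or 2 (edgeR FDR up to 0.180), and the Igfbp2 call without E9.0 control 1 or E11.5 control 3 (up to 0.140). Igfbp5 passed in controls without E9.0 control 4 (edgeR FDR = 0.0104). In mutants the Igf1r call was lost without E9.0 mutant 4 or E11.5 mutant 1 or 3 (edgeR FDR up to 0.0838), and the Igfbp5 call without E11.5 mutant 1 or 3 (up to 0.0643). The Igf2r call was lost there without E9.0 mutant 1, 2 or 4 or E11.5 mutant 2 or 3 (edgeR FDR up to 0.111), and the Igfbp2 call without E9.0 mutant 2, 3 or 4 or E11.5 mutant 2 or 3 (up to 0.146). Epicardial markers (5 of 5) and erythroid markers (8 of 8) passed upward at E11.5 in controls as in mutants, and macrophage markers in 4 of 5 and 5 of 5. Of 5 cushion mesenchyme markers 3 passed upward and 1, the matrix proteoglycan Vcan, downward in both genotypes. Their sum was lower at E11.5, with 1687 to 1810 against 2176 to 2858 CPM in controls and 1271 to 1753 against 2548 to 3145 CPM in mutants. Of 14 hypoxia response genes 11 passed downward and 0 upward in mutants (2643 to 4050 CPM summed against 5703 to 6808), and 4 downward and 2 upward in controls (2014 to 2723 against 3215 to 3901 CPM). Endothelial and endocardial markers passed downward in 2 of 5 in mutants, and in controls 2 passed upward and 1 downward. The part of these lists in the stage differences of the members was not tested. The summed epicardial level was 197 to 228 CPM in the E11.5 controls and 19.6 to 62.9 CPM in those of E9.0.

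**Figure D4:**
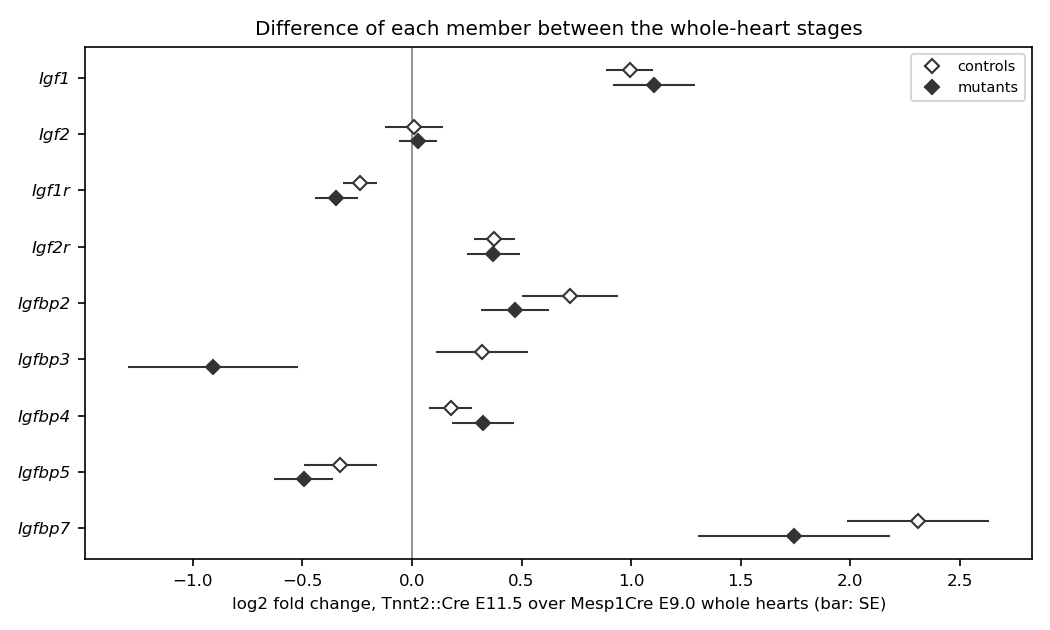
Log2 fold change of E11.5 Tnnt2::Cre over E9.0 Mesp1Cre whole hearts, with SE, in controls (open) and mutants (filled). Igf1 and Igfbp7 lie near 1 and 2, and Igf2 at 0, in both genotypes.

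Right ventricle and outflow tract held more of some members than whole hearts of the same stage, as a description with no test, since tissue and line go together. Igf1 lay between 153 and 202 CPM in the 6 Mef2cAHF::Cre libraries and between 74.2 and 112 CPM in the 6 Tnnt2::Cre libraries. Igf2 lay between 5024 and 5830 CPM against 3487 to 4720 CPM, and Igfbp7 between 12.1 and 16.6 CPM against 5.39 to 9.87 CPM. None of these 3 of 9 members overlapped between the tissues, as 24.2% of 18391 genes did not, while the other 6 did. Summed cushion mesenchyme markers did not overlap between the same libraries (3495 to 3819 against 1271 to 1810 CPM). Summed erythroid markers did overlap (7176 to 46641 against 18953 to 158238 CPM). The part of either list was not tested.

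Of a list of further IGF carriers and genes that act on them, 2 of 7 tested passed in the Mesp1Cre line. Both passed upward, where 6.17% of all genes passed upward. The median log2 fold change over the 7 was -0.07. Stanniocalcins 1 and 2 inhibit the pappalysin proteases that cut binding proteins and free IGFs. Stc2 read 77.4, 37.0, 60.0 and 33.0 CPM in the Mesp1Cre mutants and 4.71 to 6.93 CPM in the controls (log2 fold change 3.18, SE 0.26, edgeR FDR = 1.77e-05). Stc1 read 44.1, 22.8, 34.5 and 21.3 CPM against 7.92 to 9.55 CPM (1.82, edgeR FDR = 2.02e-04). Neither overlapped, and they were the 2 genes of the list that passed. Pappa, the pappalysin itself, read 15.7 to 32.1 CPM in mutants and 19.2 to 27.1 CPM in controls. In the Mef2cAHF::Cre line by the labels Htra1, another protease of binding proteins, was higher (0.86, edgeR FDR = 0.0422) and Pappa lower (-0.47, edgeR FDR = 0.0376), with the signs turned by the column names. None of the 8 tested genes passed in the Tnnt2::Cre line. Over all genes, 2.85% passed in the Mef2cAHF::Cre line and 0.293% in the Tnnt2::Cre line.

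**Figure D5:**
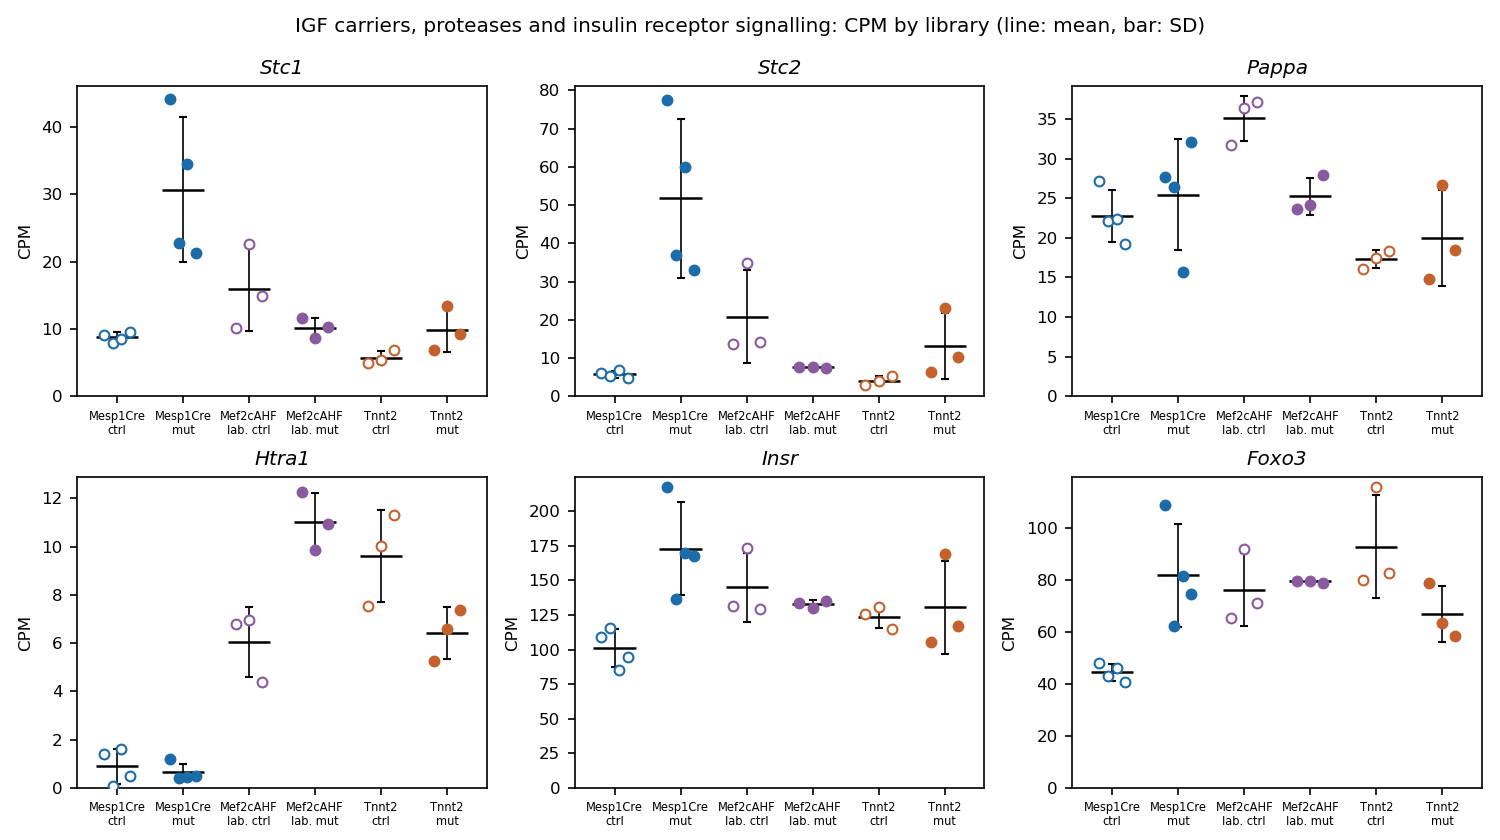
CPM by library of 6 genes around the family, drawn as in the plot of the members (axes from 0, lines means, bars SD). Stc1 and Stc2 in the Mesp1Cre mutants lie above every Mesp1Cre control, at 21.3 to 44.1 and 33.0 to 77.4 CPM.

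Of 24 tested genes of insulin and IGF receptor signalling, 4 were higher and 1 lower in the Mesp1Cre mutants. Over all genes tested there, 6.17% passed upward and 5.29% downward. Insr, the insulin receptor, read 218, 137, 170 and 168 CPM against 85.0 to 115 CPM (0.79, edgeR FDR = 0.00233), and Foxo3, a transcription factor that AKT keeps out of the nucleus, was higher by 0.90 (edgeR FDR = 0.00201). Pik3r3, a regulatory subunit of PI3K, was lower, with 14.5 to 27.1 against 36.5 to 44.2 CPM (-0.95, edgeR FDR = 0.00496). None of the 24 passed in the Mef2cAHF::Cre or Tnnt2::Cre line, where 2.85% and 0.293% of all genes passed. The median log2 fold change of the list was 0.03, 0.04 and -0.03 in the 3 lines, close to that of all genes. The genotype difference of Foxo3 differed between Mesp1Cre and Tnnt2::Cre (1.35, edgeR FDR = 0.00532), as did that of the adaptor Shc1 (0.59, edgeR FDR = 0.0169). They were 2 of 25 genes of the list tested there, where 3.04% of all genes passed.

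Of the IGF2 mRNA-binding and imprinted growth genes, Igf2bp2 alone of 14 passed in the Mesp1Cre line (0.26, edgeR FDR = 0.0389), Zim1 alone of 13 in the Mef2cAHF::Cre line by the labels (-0.64, edgeR FDR = 0.0129), and none of 14 in the Tnnt2::Cre line. Over all genes, 6.17% passed upward in the Mesp1Cre line, 2.85% passed in the Mef2cAHF::Cre line and 0.293% in the Tnnt2::Cre line. Between stages 6 of 14 were lower at E11.5 in controls, where 18.8% of all genes passed downward. In mutants 6 were lower and 3 higher, where 17.1% of all genes passed downward and 18.8% upward. Igf2as, antisense to Igf2, was lower in controls (-1.36, edgeR FDR = 3.14e-05) and mutants (-1.02, edgeR FDR = 4.13e-04), at 11.99 to 14.9 against 27.9 to 39.5 CPM in controls. Airn, the transcript antisense to Igf2r, was lower in controls (-1.13, edgeR FDR = 1.19e-04), at 14.9 to 22.5 against 36.8 to 42.2 CPM, and in mutants (-1.47, edgeR FDR = 4.12e-04), at 13.03 to 21.8 against 43.6 to 56.9 CPM. Phlda2, an imprinted brake on placental growth, fell to 0.145 to 0.306 CPM in the E11.5 controls from 1.53 to 2.65 CPM, a low level (-3.22, edgeR FDR = 3.00e-04). Htra1 rose between stages in both genotypes (3.37, edgeR FDR = 6.11e-04, and 3.30, edgeR FDR = 2.95e-04). Pappa2 had no read in the 4 E9.0 controls and 78 reads in the 3 of E11.5, at least 24.1-fold higher against 3 counts over the group. Grb10, an adaptor that restrains both receptors, was lower at E11.5 (-0.50, edgeR FDR = 9.68e-04, and -0.45, edgeR FDR = 0.00175). Akt1 was higher (0.71 and 0.76, edgeR FDR = 6.47e-05 and 8.04e-04). Of the 24 tested signalling genes, 4 were higher and 5 lower in controls, and 2 higher and 3 lower in mutants. Of all genes tested, 19.6% passed upward and 18.8% downward in controls, and 18.8% and 17.1% in mutants.

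The genes whose pattern was most like each member were named from the correlation of log2 CPM over 20 libraries, after the mean of each line was removed. These r values are descriptions over libraries that share lines and genotypes. For Igfbp3 they were P4ha2 (r = 0.96), Galk1 (0.96) and A2m (0.96), and for Igf1r Pkm2 (0.95), Ak3l1 (0.95) and Grhpr (0.94). Igf2 was closest to Midn (0.83), Fndc4 (0.81) and H19 (0.80), the last its imprinted neighbour. Igf1 was closest to Tnfrsf19 (0.87), Igf2r to Cdh2 (0.92), Igfbp2 to Mex3d (0.92), Igfbp4 to Znrf1 (0.87) and Igfbp7 to Slc15a4 (0.83).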

How the data were processed

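RNA was taken from 20 embryonic mouse heart samples (whole hearts, or right ventricle with outflow tract), sequenced on Illumina instruments, and per the labels aligned to mm9 with TopHat2 (2.0.8b). The protocol text names a NuGEN Ovation kit and the series design text a TruSeq kit. The authors assigned reads to genes with featureCounts. The deposited table gives raw read counts and FPKM, which the authors computed with USeq per gene length and library. Its 20 columns of variance-corrected counts on a log2 scale, made by the authors with USeq, were not used. Library names in 2 header rows disagree for the Mef2cAHF::Cre line, so groups followed the sample labels, with the column names as an alternative. Analyses used R 4.3.3 with edgeR 4.0.16: filterByExpr, TMM scaling and the quasi-likelihood F test on the counts, line by line, or on all 6 groups for differences between lines, with Benjamini-Hochberg FDR over all genes tested and a threshold of 0.05. The SE is the log2 fold change divided by the root of F. CPM used TMM factors over 20 libraries. DESeq2 1.42.0 and limma 3.58.1 on log2(FPKM + 0.1 or 1) were alternatives, with other scaling, no filter, a replicate block, a 6-group fit, each library left out and, for Mesp1Cre, sex (Y-linked sum of at least 10 CPM). Depth of 21727258 to 45341870 reads per library limits genes of few reads, and floors cover counting error only. On simulated counts with 200 changed genes, 4-fold changes were recovered in 100% (Mesp1Cre, 16057 genes), 99.0% (Mef2cAHF::Cre, 16943 genes) and 99.0% (Tnnt2::Cre, 17240 genes) of cases, and 2-fold changes in 55.7%, 87.5% and 68.0%. The simulation gave every gene of a comparison the same dispersion (0.071, 0.020 and 0.038), while real genes differ in their spread. These rates therefore do not hold for genes that vary more between libraries, such as Igfbp3 at E11.5. The members, lists and tests were chosen with earlier results of these data known. Named genes were all members, the targeted gene, per list and comparison the 2 largest rises and falls past the threshold, and the nearest patterns over genes with mean log2 CPM of at least 1 (prior count 2). Some genes that this rule names are not reported here. Pappa in the Mesp1Cre line was named after its values were seen. Promoter windows came from RefSeq (GRCm38.p6), and matched all 10 members. Same-numbered libraries did not deviate together in every pair, so numbers were not used as pairs.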

Additional observations from a re-analysis of the deposited data

Results flagged for a closer look

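Among the 4 Mesp1Cre libraries of each genotype, 2 members above the filter on low counts had a library far from the other 3 by Dixon's test at the 95% level, which chance gives in about 1 in 20 groups. For Igf1r the library was control 2, the highest of its group at 253 CPM. For Igfbp4 it was mutant 1, the lowest of its group at 39.9 CPM. For Igfbp1 control 2 (0.124 CPM, 3 reads) and mutant 2 (0.0378 CPM, 1 read) stood alone above 3 libraries at 0, where the test gives this outcome by construction.

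By the sample labels of the Mef2cAHF::Cre line, 6 genotype differences of members differed between lines in a test of the difference itself (edgeR, all 6 groups). They were 4 of 9 members between Mesp1Cre and Mef2cAHF::Cre (11.3% of all genes passed) and 2 of 9 between Mef2cAHF::Cre and Tnnt2::Cre (3.19%). Both comparisons use the same 6 Mef2cAHF::Cre libraries. Against Mef2cAHF::Cre the Mesp1Cre difference was higher by 3.95 for Igfbp3, 1.28 for Igfbp2 and 0.70 for Igf1r on the log2 scale, and for Igf1 it was -0.70. The Mef2cAHF::Cre difference against that of Tnnt2::Cre was -0.58 for Igf1r and -2.70 for Igfbp3. By the column names none of these 6 passed.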

How the results depend on the processing

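Of 1125 recomputed member values, 958 kept their direction and side of the threshold, 58 lost a call, 21 gained one and 88 changed sign, and no value called in the main analysis changed sign apart from the reading of the Mef2cAHF::Cre names. Igfbp3 and Igf1r in the Mesp1Cre line passed under all 8 alternatives and 8 single-library omissions. The cause of the changes below was not tested.

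The reading of the Mef2cAHF::Cre column names turned all 9 differences, to -0.17 (Igf1), 0.0437 (Igf2), 0.31 (Igf1r), -0.14 (Igf2r), 0.61 (Igfbp2), 1.45 (Igfbp3), -0.12 (Igfbp4), 0.0525 (Igfbp5) and -0.0436 (Igfbp7). Against Mesp1Cre it left 299 genes and 0 members called and turned Igf2 to -0.0725. Against Tnnt2::Cre it left 0 genes and 0 members and turned Igf2 to 0.0687, Igf1r to 0.0437, Igfbp2 to 0.21, Igfbp3 to 0.19 and Igfbp4 to -0.11.

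Genes called moved from 1821 to 3593 (6-group fit) and 899 (sex covariate) in the Mesp1Cre line. In the Mef2cAHF::Cre line they moved from 482 to 1103 by DESeq2 (2 members called), 1311 with no filter (3 members), 129 in the 6-group fit, and 291 and 253 on log2(FPKM + 0.1) and log2(FPKM + 1). In the Tnnt2::Cre line they moved from 50 to 368 by DESeq2, 120 with no filter, 82 in the 6-group fit, and 22 and 19 on FPKM. By DESeq2 the differences between lines moved from 559 to 1242 (Mesp1Cre and Tnnt2::Cre) and from 586 to 1035 genes (Mef2cAHF::Cre and Tnnt2::Cre). Between Mef2cAHF::Cre and Tnnt2::Cre Igfbp2 passed by DESeq2 (-1.02, FDR = 0.0347) and with no filter. Between stages in controls the Igf1r call was lost with no filter (FDR = 0.0851) and in the 6-group fit (FDR = 0.0557). In mutants Igfbp2 was lost in the 6-group fit (FDR = 0.0707), where Igfbp4 passed (0.34, FDR = 0.0193), and Igf2r and Igfbp2 were lost on log2(FPKM + 1), with limma FDR of 0.275 and 0.154.

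On FPKM plus 0.1 the median of all genes shifted by 0.15, -0.13 and 0.11 in the Mesp1Cre, Mef2cAHF::Cre and Tnnt2::Cre lines. Small differences turned sign on that scale. With 0.1 and 1 added they were 0.16 and 0.16 for Igf2, 0.0219 and 0.0213 for Igfbp4 and 0.0661 and 0.0655 for Igfbp5 in the Mesp1Cre line. They were -0.0136 and -0.0134 for Igfbp4 and -0.0871 and -0.0816 for Igfbp7 in the Mef2cAHF::Cre line, and 0.0999 and 0.0997 for Igf2 and 0.10 and 0.0993 for Igfbp4 in the Tnnt2::Cre line. Between stages they were -0.0305 and -0.0305 for Igf2 in controls and -0.0887 and -0.0886 for Igf2 in mutants. With the sex covariate Igf2 was 0.00944 in the Mesp1Cre line.

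Same-numbered Mesp1Cre libraries share a code in their descriptions that no label explains. The correlation of same-numbered deviations was -0.03 to 0.13 over the 3 lines, so the numbers were not taken as pairs. With the replicate block 1384 genes and the 3 members passed in the Mesp1Cre line, 28 genes in the Tnnt2::Cre line, and 3395 genes and 2 members between stages in mutants, while Igf1r and Igf2r were lost and Igfbp5 gained between stages in controls. The Igf1 difference between Mesp1Cre and Mef2cAHF::Cre was lost as well (FDR = 0.0566). Igf2 turned to 0.00059 in the Mesp1Cre line and -0.0803 between stages in controls.

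Leaving out 1 library at a time gave 1052 to 2161 genes in the Mesp1Cre line, 75 to 662 in the Mef2cAHF::Cre line (0 to 1 members), 4 to 896 in the Tnnt2::Cre line (0 to 1 members), 3 to 6 members between stages in controls, and 3863 to 5723 genes (2 to 5 members) in mutants. Differences between lines ranged over 167 to 1037 genes for Mesp1Cre and Tnnt2::Cre (0 to 1 members), 295 to 1031 for Mef2cAHF::Cre and Tnnt2::Cre (1 to 2 members), and 1225 to 2471 for Mesp1Cre and Mef2cAHF::Cre. Igf2 ranged from -0.0973 to 0.0663, -0.0765 to 0.00606 and -0.12 to 0.0947 in the 3 lines, -0.10 to 0.13 and -0.0191 to 0.11 between stages, and -0.13 to 0.0945, -0.14 to 0.0787 and -0.0696 to 0.0976 between lines in the same order. In the Mesp1Cre line Igfbp7 ranged from -0.25 to 0.48. In the Mef2cAHF::Cre line Igfbp5 ranged from -0.19 to 0.0515 and Igfbp7 from -0.0788 to 0.19, and in the Tnnt2::Cre line Igfbp4 from -0.096 to 0.0753. Between Mesp1Cre and Tnnt2::Cre Igf1 ranged from -0.24 to 0.0632 and Igf2r from -0.11 to 0.12. Between Mef2cAHF::Cre and Tnnt2::Cre Igf2r ranged from -0.16 to 0.071. Between Mesp1Cre and Mef2cAHF::Cre Igfbp5 ranged from -0.23 to 0.0479 and Igfbp7 from -0.32 to 0.41. The lowest and highest gene counts were without mutant 1 and mutant 2 (Mesp1Cre), labelled mutant 2 and labelled control 2 (Mef2cAHF::Cre) and control 3 and mutant 1 (Tnnt2::Cre). Depth limits Igfbp1 in all libraries and Igfbp7 at E9.0.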

Other observations

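Between stages, further genes around the family passed in edgeR's test on whole hearts. Of the list of IGF carriers and genes that act on them, 5 of 8 passed in controls and 3 of 7 in mutants. Among the signalling genes 9 of 24 passed in controls and 5 of 24 in mutants. Of all genes tested, 19.6% passed upward and 18.8% downward in controls, and 18.8% and 17.1% in mutants. In controls Stc1 (-0.65, FDR = 0.0149), Pappa (-0.42, FDR = 0.0275) and the adaptor Grb14 (-0.80, FDR = 5.73e-04) were lower at E11.5 on the log2 scale, and Foxo3 was higher (1.03, FDR = 1.09e-04). In mutants Stc2 (-1.98, FDR = 0.00706) and Stc1 (-1.65, FDR = 0.0027) were lower. Cdkn1c, an imprinted inhibitor of the cell cycle (0.91, FDR = 0.00109), Tsc2, a brake on mTOR signalling (0.40, FDR = 0.014), and the imprinted Mest (0.36, FDR = 0.0493) were higher.

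Genotype differences of these lists also differed between lines in edgeR's fit of 6 groups. Between Mesp1Cre and Tnnt2::Cre 3 listed genes passed, and besides Foxo3 and Shc1 this was Phlda2 (-2.53, FDR = 0.0245). They were 0 of 8 in the carrier list, 2 of 25 in the signalling list and 1 of 14 in the imprinted list. In that comparison 3.04% of all genes passed. Between Mesp1Cre and Mef2cAHF::Cre by the sample labels Stc2 differed by 4.63 (FDR = 3.7e-05), Stc1 by 2.44 (FDR = 3.49e-04) and Igfbpl1 by -0.99 (FDR = 0.0297). Insr (0.90, FDR = 0.0114), Foxo3 (0.82, FDR = 0.0258), Pik3r3 (-1.63, FDR = 0.00266) and Grb2 (-0.60, FDR = 0.0372) passed as well. So did Zim1 (1.01, FDR = 0.00294), Igf2bp2 (0.46, FDR = 0.0309), Plagl1 (-0.65, FDR = 0.00163) and Mest (-0.58, FDR = 0.044). By list, 3 of 8, 7 of 25 and 4 of 14 genes passed there, where 11.3% of all genes passed. Not all of the 7 signalling genes are named. By the column names Foxo3 (0.94, FDR = 0.0449) and Shc1 (0.66, FDR = 0.0147) were the listed genes that passed, where 1.63% of all genes passed. Between Mef2cAHF::Cre and Tnnt2::Cre by the labels Stc2 (-3.14, FDR = 0.00475), Zim1 (-0.94, FDR = 0.0204) and Akt1 (0.48, FDR = 0.0415) passed. They were 1 of 8, 1 of 14 and 1 of 25 in their lists, where 3.19% of all genes passed. By the column names no listed gene passed.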
